A study of Rattus norvegicus with 8 samples.

Results

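Interferon-stimulated genes were followed in perfused rat liver, in an array study of buffer osmolarity. The list names 43 genes that interferons are known to induce. Probe sets with a single annotated gene were found for 41 of them, out of 14506 named genes on the array, and each of the 41 had 1 such probe set. No probe set was named for Parp14 or Xaf1, which are not analysed here. The RNA sensor listed under its older symbol Ddx58 appears as Rig1.

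The livers came from male Wistar rats, an outbred strain, aged 6 to 10 weeks, with no genotype or drug treatment in the labels. In this preparation the isolated liver is kept alive by Krebs-Henseleit buffer, a salt solution, pumped through its vessels. Of the 8 samples, 4 were perfused with hypoosmotic buffer (225 mosm/L), which draws water into cells, and 4 with normoosmotic buffer (305 mosm/L), all with a time point of 120 min. Nothing in the labels ties a sample to an animal of its own. The p-values therefore rest on the variation among 4 samples per buffer, part of which may be technical. Such a liver is cut off from circulating blood and holds hepatocytes together with its resident macrophages, endothelial cells and lymphocytes. In RNA of the whole organ, fewer cells of a type and less RNA per cell cannot be told apart.

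Interferons are secreted signal proteins of antiviral defence. Type I interferons bind a receptor of the subunits Ifnar1 and Ifnar2, whose kinases activate transcription factors. Among these, Stat2 and Irf9 act in a complex on a DNA motif called the interferon-stimulated response element. Interferon gamma acts through another motif, the gamma-activated site. The induced genes encode sensors of viral RNA, enzymes that block viral replication, chemokines and parts of antigen processing. Hepatocytes and the other cells of the liver can all respond.

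The promoters of 30 of the 41 genes were found in the RefSeq table of the GRCr8 assembly, each 300 bases long, with 250 before and 50 after the annotated start of the gene. The response element was searched on both strands as GAAA, any 2 bases and GAAA, or in reverse as TTTC, any 2 bases and TTTC, and the gamma-activated site as TTCNNNGAA, which is its own reverse complement. Overlapping matches were allowed. The response element was found in 20 of the 30 promoters (66.7%), against 3.92% of all 33469 promoters in the table. The gamma-activated site was found in 8 of the 30 (26.7%), against 8.87% of all promoters, and 6 promoters held both. A match is a description of letters, not of a site in use.

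The 200 bases before the start are shown for 6 genes, with matches in capitals. The first 3 are members with large or medium changes and a response element, the next pair shares an arrangement of both motifs, and Trim25 is the single gene that passed the test. The choice was made after values were seen. Rsad2 lies at chr6:48788121-48788320 (minus strand), Oasl2 at chr12:47383186-47383385 (minus strand), Tap1 at chr20:4668544-4668743 (minus strand), Igtp at chr10:42874847-42875046 (plus strand), Irgm at chr10:33742579-33742778 (minus strand) and Trim25 at chr10:74309824-74310023 (plus strand), all in GRCr8 and all printed 5′ to 3′ along the gene.
Rsad2: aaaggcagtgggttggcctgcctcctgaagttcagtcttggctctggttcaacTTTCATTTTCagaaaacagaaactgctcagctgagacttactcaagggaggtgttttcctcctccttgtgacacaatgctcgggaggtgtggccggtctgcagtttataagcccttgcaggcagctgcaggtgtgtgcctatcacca
Oasl2: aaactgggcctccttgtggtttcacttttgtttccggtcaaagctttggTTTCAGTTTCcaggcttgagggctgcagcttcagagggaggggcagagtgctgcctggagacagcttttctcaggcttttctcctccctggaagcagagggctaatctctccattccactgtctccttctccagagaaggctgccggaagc
Tap1: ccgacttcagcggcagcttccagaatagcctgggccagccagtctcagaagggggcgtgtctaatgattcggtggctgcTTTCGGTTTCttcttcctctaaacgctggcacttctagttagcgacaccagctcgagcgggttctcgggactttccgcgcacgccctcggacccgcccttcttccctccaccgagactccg
Igtp: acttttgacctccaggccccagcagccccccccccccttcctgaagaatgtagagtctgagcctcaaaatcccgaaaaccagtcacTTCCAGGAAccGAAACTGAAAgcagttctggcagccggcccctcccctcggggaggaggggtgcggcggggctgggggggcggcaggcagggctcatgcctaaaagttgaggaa
Irgm: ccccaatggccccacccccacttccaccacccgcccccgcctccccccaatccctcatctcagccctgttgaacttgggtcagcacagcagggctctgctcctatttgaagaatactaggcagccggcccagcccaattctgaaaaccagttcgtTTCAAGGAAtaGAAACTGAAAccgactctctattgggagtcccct
Trim25: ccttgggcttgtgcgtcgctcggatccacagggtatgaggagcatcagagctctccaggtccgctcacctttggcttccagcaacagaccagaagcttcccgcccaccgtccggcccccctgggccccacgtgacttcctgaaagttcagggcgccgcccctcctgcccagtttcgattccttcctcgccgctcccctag

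In Rsad2, Oasl2 and Tap1 the match to the response element began at positions −147, −151 and −121, counted from the start, on the strand opposite to the gene. In Igtp it began at −103 and in Irgm at −34, in both cases 2 bases behind a gamma-activated site. Those genes encode immunity-related GTPases, a family whose members in the mouse respond strongly to interferon gamma. Neither motif was found in the window of Trim25.

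Across the list the hypoosmotic samples tended to read higher, but the change passed the test in 1 gene. Trim25, which encodes a ubiquitin ligase of antiviral RNA sensing, rose 1.57-fold (95% interval 1.30 to 1.90; adjusted p = 0.0213 in limma over 14506 genes). Of the 41 genes 1 was called higher and 0 lower, where 0.558% of all genes were called higher and 1.42% lower, 1.98% in all. The median log2 change, hypoosmotic minus normoosmotic, was 0.28 over the 41 genes and 0.037 over all genes. The hypoosmotic mean was the higher one in 35 of the 41 genes (85.4%), against 58.2% of all genes. At an unadjusted p under 0.05, 13 of the 41 were higher and 0 lower, against 6.6% and 7.97% of all genes. The list is described by these counts and was not tested as a set. By array the buffers overlapped. The median level of the 41 genes was 6.02, 6.51, 6.66 and 6.32 in hypoosmotic replicates 1 to 4. In normoosmotic replicates 1 to 4 it was 5.68, 5.93, 6.39 and 6.11.

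**Figure D1:**
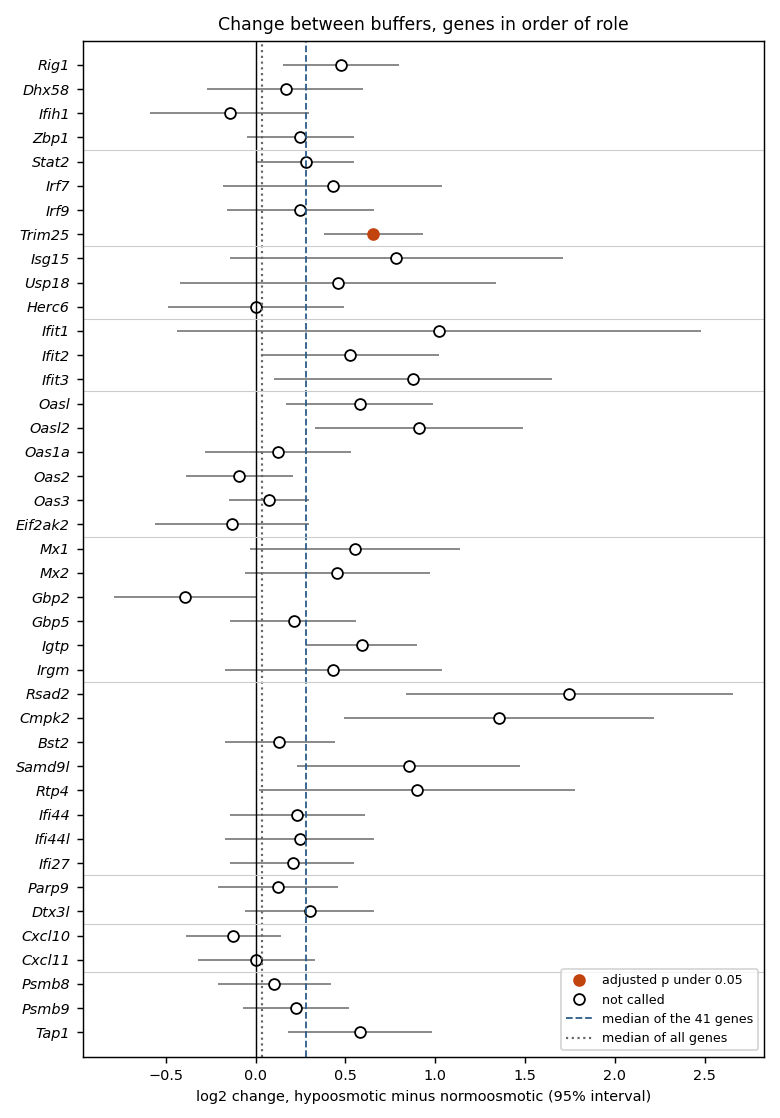
Log2 change between buffers (hypoosmotic minus normoosmotic, x axis) for the 41 genes in order of role (y axis), with 95% intervals from limma, n = 4 arrays per buffer. Trim25 is the filled point, 28 of the 41 intervals include 0, and the dashed median of the list (0.28) lies right of the dotted median of all genes (0.037).

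Among the genes of signalling and transcription, 1 of 4 measured members was called higher. Trim25 (probe set 10737411) read 7.53, 7.81, 7.84 and 7.76 log2 units in hypoosmotic replicates 1 to 4, against 6.89, 7.0, 7.36 and 7.08 in normoosmotic replicates 1 to 4. Every hypoosmotic value lay above every normoosmotic one, and the gap between the means, 0.65 ± 0.13 (SE), exceeded the SDs of 0.14 and 0.20. An exact permutation test of this gene alone gave a two-sided p of 0.0286, the smallest that 4 arrays against 4 allow. Any gene whose groups do not overlap gets this p, so it adds nothing to the lack of overlap. Groups were apart in 8.27% of all genes. The adjusted p was 0.079 without hypoosmotic replicate 2, 0.0597 without hypoosmotic replicate 3, 0.0688 without normoosmotic replicate 1 and 0.0507 without normoosmotic replicate 2.

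Stat2 and Irf9, partners in the complex that binds the response element, averaged 6.64 ± 0.12 and 6.22 ± 0.24 in hypoosmotic samples, against 6.36 ± 0.20 and 5.97 ± 0.41 in normoosmotic ones (SD, n = 4 each). Their adjusted p-values were 0.327 and 0.615. Irf7, the transcription factor that amplifies interferon alpha production, ranged over 5.38 to 6.48 in hypoosmotic samples and 4.97 to 6.25 in normoosmotic ones, so the groups overlapped over most of their range (adjusted p = 0.548).

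The other antiviral effectors held the largest changes of the list, and 0 of 8 measured members passed the test. Rsad2 (probe set 10889399) encodes viperin, an enzyme that makes a chain-terminating nucleotide. It read 7.43, 9.13, 9.58 and 8.58 in hypoosmotic replicates 1 to 4, against 6.12, 6.94, 7.97 and 6.70 in normoosmotic ones. A single pair of arrays crossed, since hypoosmotic replicate 1 lay below normoosmotic replicate 3. The log2 change was 1.75 with a 95% interval of 0.84 to 2.66 (adjusted p = 0.0539), and the adjusted p passed without hypoosmotic replicate 1 (0.0149) and without normoosmotic replicate 3 (0.0302). Leaving out any other single array gave 0.0723 to 0.171, the highest without hypoosmotic replicate 2. Over 17 alternative settings the adjusted p of Rsad2 ran from 0.00112, with a replicate block, to 0.22, with the trended robust prior. It passed in 5 of them.

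Cmpk2 (probe set 10883960), a nucleotide kinase gene that neighbours Rsad2 on the opposite strand in the RefSeq annotation, had a pattern like that of Rsad2. Its values were 6.46, 7.64, 8.46 and 7.29 in hypoosmotic replicates 1 to 4 and 5.30, 6.17, 7.18 and 5.78 in normoosmotic ones. In both genes and in both buffers the order of the arrays was replicate 3, then 2, then 4, then 1, from high to low. The log2 change of Cmpk2 was 1.36 with an interval of 0.49 to 2.22 (adjusted p = 0.11). Leaving out 1 array gave an adjusted p of 0.0494 for normoosmotic replicate 3 and of 0.0553 to 0.281 for the others.

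Rtp4, a membrane-linked protein gene of the interferon response, was split within the hypoosmotic group. It read 4.70 in hypoosmotic replicate 1 against 6.67, 7.04 and 6.39 in the other hypoosmotic arrays, and 4.63, 5.12, 5.84 and 5.61 in normoosmotic replicates 1 to 4. The low hypoosmotic array thus sat beside the lowest normoosmotic one. The adjusted p was 0.33 with all arrays, 0.0238 without hypoosmotic replicate 1 and 0.318 to 0.593 without any other single array. Samd9l, an inhibitor of translation, had a log2 change of 0.85 ± 0.29 (SE; adjusted p = 0.162). The changes of Bst2, which tethers budding viruses to the cell, and of Ifi44, Ifi44l and Ifi27 lay between 0.13 and 0.24, with adjusted p-values from 0.609 to 0.74. Ifi27 read 10.78, 11.26, 11.07 and 10.48 in hypoosmotic replicates 1 to 4, against 10.58, 10.53, 10.83 and 10.82 in normoosmotic ones, with the normoosmotic values inside the hypoosmotic range.

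**Figure D2:**
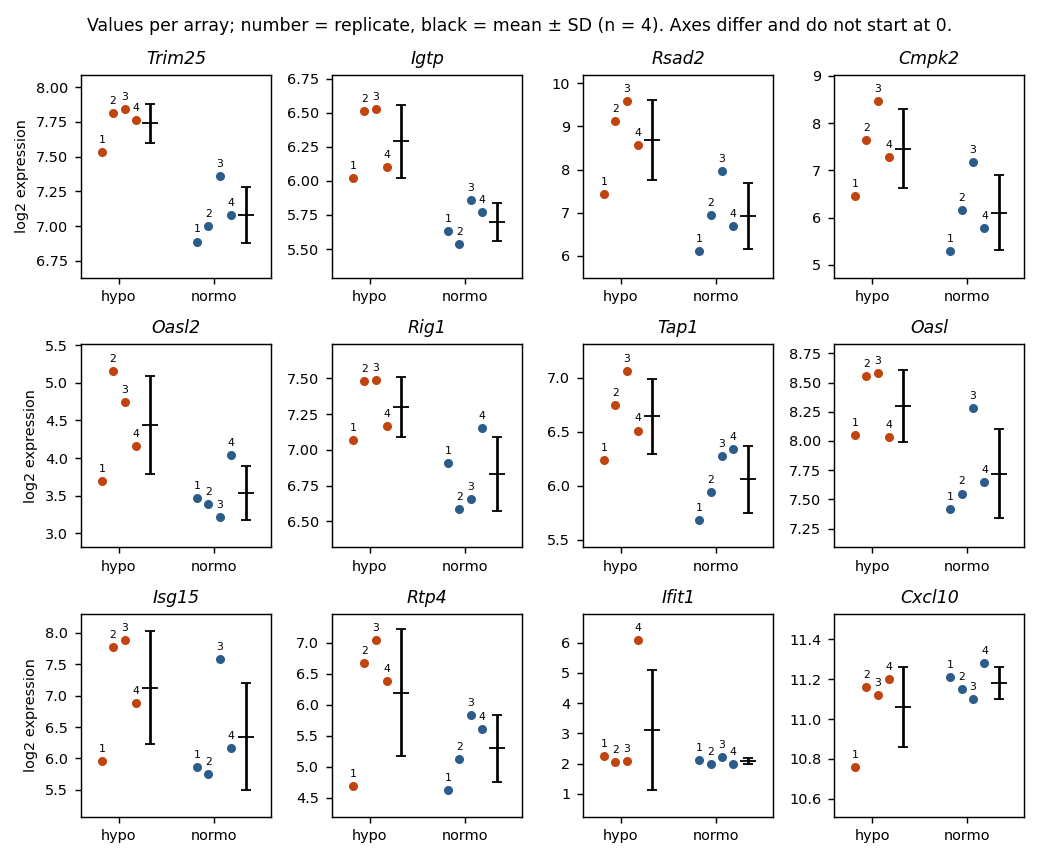
Deposited log2 expression (y axis) per array for 12 of the genes, hypoosmotic left of normoosmotic, with replicate numbers beside the points and the mean ± SD (n = 4) in black. Trim25 and Igtp are the genes whose groups do not overlap, and 1 hypoosmotic array carries the Ifit1 difference.

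Of the 6 dynamin-like and immunity-related GTPases, 0 were called. Igtp (probe set 10733790) read 6.02, 6.51, 6.53 and 6.10 in hypoosmotic replicates 1 to 4, against 5.63, 5.54, 5.86 and 5.77 in normoosmotic ones. With Trim25 it was the other gene of the 41 whose groups did not overlap, 4.88% of the list, where 8.27% of all genes were apart, 3.21% with the hypoosmotic values above and 5.05% with them below. Both members lay above. Its log2 change of 0.59 ± 0.14 (SE) had an adjusted p of 0.0523. It was 0.0493 without hypoosmotic replicate 1, 0.0451 without hypoosmotic replicate 4 and 0.078 to 0.169 without any other single array. Over 17 alternative settings the adjusted p of Igtp ran from 0.0451 to 0.274 and passed in 6. Irgm, whose promoter resembles that of Igtp, ranged from 5.92 to 7.27 in hypoosmotic and from 5.86 to 7.0 in normoosmotic samples (adjusted p = 0.539).

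Mx1 and Mx2, which in the rat block influenza virus and vesicular stomatitis virus, averaged 4.37 ± 0.73 and 5.61 ± 0.58 in hypoosmotic samples, against 3.82 ± 0.18 and 5.16 ± 0.29 in normoosmotic ones. The adjusted p of Mx2 was 0.423 with all arrays and 0.0443 without hypoosmotic replicate 4, the single setting that gave it a call. Gbp2, a guanylate-binding protein gene, was the member with the lowest change, at 7.62 ± 0.37 in hypoosmotic and 8.02 ± 0.27 in normoosmotic samples (log2 change −0.395, adjusted p = 0.344). Its relative Gbp5 had a change of 0.21 (adjusted p = 0.62).

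Of the genes of the oligoadenylate synthetase family and of the kinase PKR (Eif2ak2), 0 of 6 were called. Some proteins of that family activate an RNA-cutting enzyme, and PKR halts translation. Oasl2 (probe set 10762747) read 3.69, 5.16, 4.75 and 4.16 in hypoosmotic replicates 1 to 4, against 3.47, 3.39, 3.21 and 4.04 in normoosmotic ones. Hypoosmotic replicates 2 to 4 lay above all normoosmotic arrays and replicate 1 did not (adjusted p = 0.108). The adjusted p was 0.0411 without hypoosmotic replicate 1 and 0.0707 to 0.281 without any other single array. Oasl (probe set 10762740) read 8.05, 8.56, 8.58 and 8.03 in hypoosmotic samples and 7.42, 7.55, 8.28 and 7.65 in normoosmotic ones, where replicate 3 reached into the hypoosmotic range (adjusted p = 0.155). For Oas1a, Oas2, Oas3 and Eif2ak2 the changes lay between −0.13 and 0.13, with adjusted p-values from 0.808 to 0.826. Oas2 belonged to the dimmest 25% of genes by mean signal, and Oas1a has close copies in the rat genome that its probes may also bind.

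Of the sensors of viral nucleic acid, 0 of 4 passed. Rig1 (probe set 10875988), the sensor of short viral RNA, read 7.07, 7.48, 7.49 and 7.17 in hypoosmotic replicates 1 to 4, against 6.91, 6.59, 6.66 and 7.15 in normoosmotic ones. Normoosmotic replicate 4 lay among the lower hypoosmotic values (log2 change 0.47 ± 0.15, SE; adjusted p = 0.13). Ifih1, the sensor of long duplex RNA, had the opposite sign, at 8.06 ± 0.31 in hypoosmotic and 8.20 ± 0.44 in normoosmotic samples (adjusted p = 0.814). Dhx58, which tunes both sensors, and Zbp1, a sensor of Z-form nucleic acid, had changes of 0.17 and 0.25 (adjusted p = 0.774 and 0.464).

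The Ifit genes, whose products bind foreign RNA, had 0 of 3 members called. Ifit1 (probe set 10714907) read 2.24, 2.05, 2.07 and 6.07 in hypoosmotic replicates 1 to 4, against 2.12, 2.0, 2.23 and 2.0 in normoosmotic ones. Its change of 1.02 (adjusted p = 0.551) came from hypoosmotic replicate 4, and without that array it was 0.0325. The remaining 7 values lay between 2.0 and 2.24, and the gene was in the dimmest 25% by mean signal. Hypoosmotic replicate 4 was not high for the other genes of the family. There Ifit3 read 6.58 and Ifit2 8.42, inside the hypoosmotic ranges of 5.76 to 7.64 and 8.19 to 9.18, beside normoosmotic ranges of 5.45 to 6.79 and 7.84 to 8.66. Ifit3 and Ifit2 had changes of 0.88 ± 0.36 and 0.53 ± 0.23 (SE; adjusted p = 0.276 and 0.307).

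In the pathway of Isg15, a ubiquitin-like modifier, 0 of 3 members were called. Isg15 (probe set 10882317) read 5.96, 7.78, 7.88 and 6.89 in hypoosmotic replicates 1 to 4, against 5.86, 5.76, 7.59 and 6.17 in normoosmotic ones. Each buffer thus held arrays near the bottom and near the top of the gene's range, and the 95% interval of the change ran from −0.14 to 1.71 (adjusted p = 0.449). Usp18, the protease that removes Isg15, ranged over 4.45 to 6.41 in hypoosmotic and 4.08 to 5.87 in normoosmotic samples. Herc6, the ligase for Isg15 in the mouse, averaged 6.43 ± 0.42 and 6.43 ± 0.43 in hypoosmotic and normoosmotic samples.

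Antigen processing genes had 0 of 3 members called. Tap1 (probe set 10831606), a subunit of the peptide transporter, read 6.24, 6.75, 7.06 and 6.51 in hypoosmotic replicates 1 to 4, against 5.68, 5.94, 6.27 and 6.34 in normoosmotic ones. The lowest hypoosmotic array fell within the normoosmotic range (log2 change 0.58 ± 0.18, SE; adjusted p = 0.136). Psmb8 and Psmb9, subunits of the immunoproteasome, had changes of 0.10 and 0.22 (adjusted p = 0.808 and 0.512). Parp9 and Dtx3l, whose products form a complex that modifies histones and viral proteins, had changes of 0.13 and 0.30 (adjusted p = 0.776 and 0.447).

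The chemokine genes Cxcl10 and Cxcl11, ligands of the receptor Cxcr3 on T cells, had 0 of 2 members called and changes near 0. Cxcl10 (probe set 10771655) read 10.76, 11.16, 11.12 and 11.20 in hypoosmotic replicates 1 to 4, against 11.21, 11.15, 11.10 and 11.28 in normoosmotic ones. Cxcl11 (probe set 10771649) read 10.17, 10.80, 10.42 and 10.79, against 10.74, 10.48, 10.41 and 10.54. Apart from hypoosmotic replicate 1, which was the lowest array for both, the buffers covered nearly the same range. The 95% intervals of the changes were −0.39 to 0.14 for Cxcl10 and −0.32 to 0.33 for Cxcl11, whose sign turned with the scaling of the arrays.

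**Figure D3:**
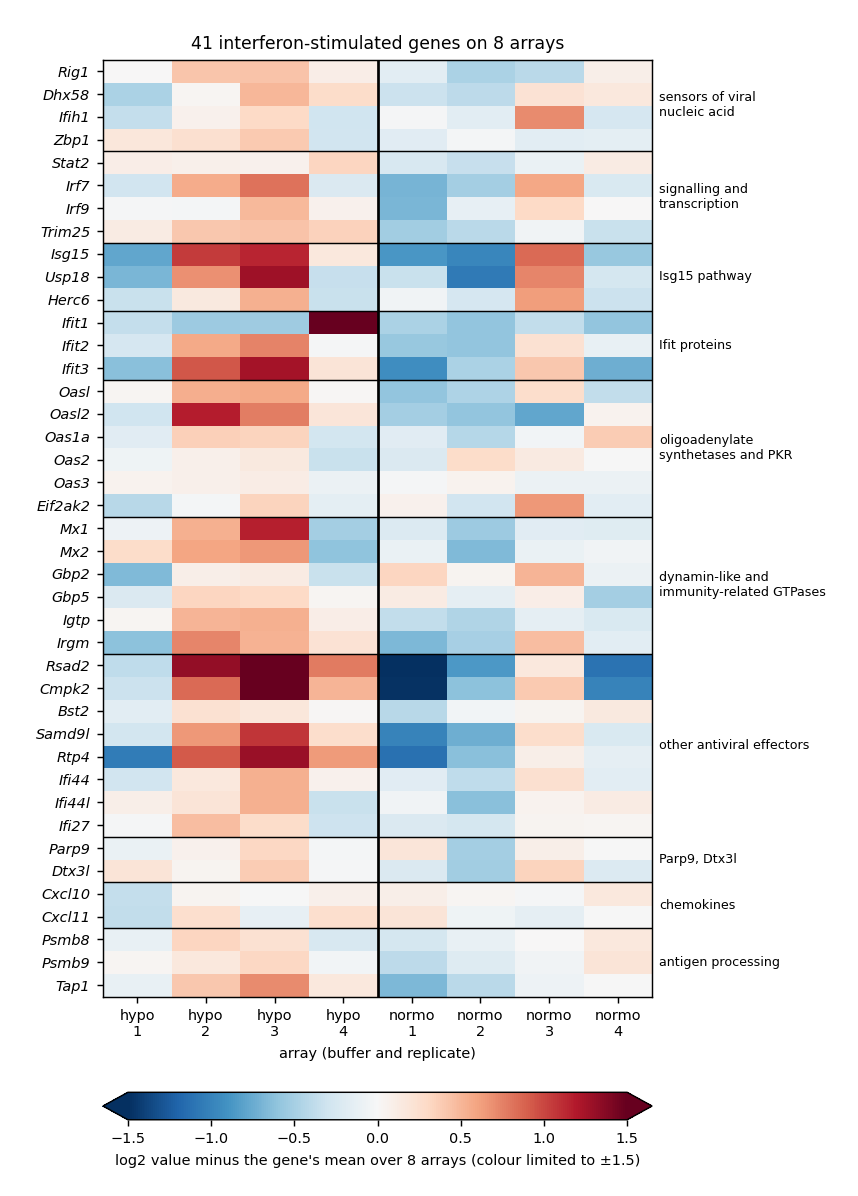
Colour gives each gene's log2 value minus its mean over the 8 arrays (rows: 41 genes by role, columns: arrays, hypoosmotic left). Hypoosmotic replicates 2 and 3 are mostly red, normoosmotic replicates 1 and 2 mostly blue, and normoosmotic replicate 3 is red for many of the same rows, with Ifit1 in hypoosmotic replicate 4 and the chemokine rows departing from this.

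The spread within each buffer was wide for these genes. The median SD over the 4 arrays was 0.337 log2 units in hypoosmotic and 0.309 in normoosmotic samples for the 41 genes, against 0.179 and 0.167 for all 14506 genes. The SD exceeded the median of all genes in 35 of the 41 in hypoosmotic samples and in 34 in normoosmotic ones. It exceeded the 90th percentile of all genes (0.327 and 0.314) in 22 and 20 of them. In 15 genes it did so in both buffers, which held for 2.4% of all genes. These 15 were Rsad2, Cmpk2, Isg15, Usp18, Herc6, Ifit2, Ifit3, Rtp4, Samd9l, Irf7, Irgm, Dhx58, Oasl2, Oas1a and Ifi44l. The SD of Rsad2 was 0.93 in hypoosmotic and 0.77 in normoosmotic samples, and that of Isg15 was 0.90 and 0.85. At the narrow end, Oas3 had SDs of 0.09 and 0.07.

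The hypoosmotic SD was the larger one in 26 of the 41 genes, beside 53.9% of all genes. Mx1 had SDs of 0.73 and 0.18 and Zbp1 of 0.29 and 0.06 in hypoosmotic and normoosmotic samples. A difference of spread between the buffers was not tested.

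**Figure D4:**
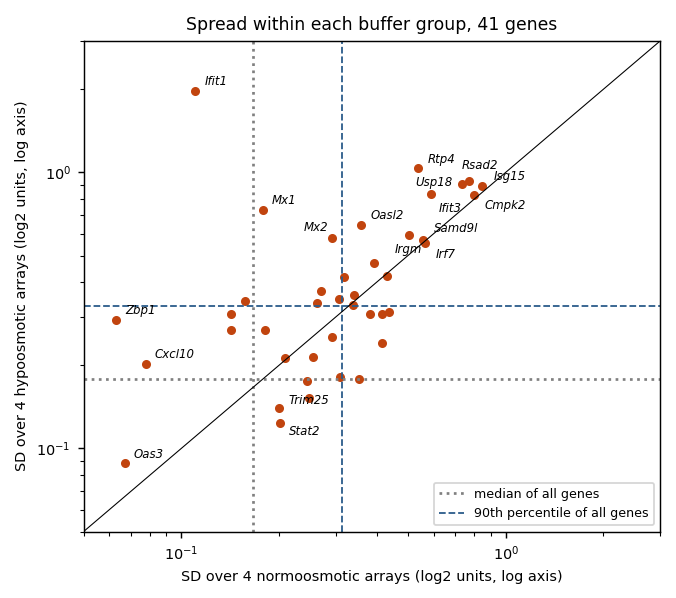
SD over the 4 hypoosmotic arrays (y axis) against SD over the 4 normoosmotic arrays (x axis) for each of the 41 genes, in log2 units on log axes. The points right of and above the dashed lines are the 15 genes over the 90th percentile of all genes in both buffers, and Ifit1 stands far above the diagonal.

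The arrays of a buffer differed in the same direction for most of the genes. Hypoosmotic replicate 1 was the lowest hypoosmotic array in 25 of the 41 genes, against 24.6% of all genes, and the highest in 0, against 19.5%. Hypoosmotic replicate 3 was the highest in 30 of the 41, against 25.1% of all genes. Normoosmotic replicate 3 was the highest normoosmotic array in 24 of the 41, against 24.3% of all genes. In 17 of the 41 genes hypoosmotic replicate 1 was the lowest and normoosmotic replicate 3 the highest of their groups, a combination seen in 6.72% of all genes. The genes are induced by shared factors and measured on the same arrays, so they are not independent of each other.

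The median deviation from the buffer's own mean over the 41 genes was −0.322, 0.178, 0.31 and −0.167 in hypoosmotic replicates 1 to 4 and −0.1, −0.175, 0.212 and 0.06 in normoosmotic replicates 1 to 4. Over all genes these medians stayed between −0.018 and 0.018. Hypoosmotic replicate 1 read below normoosmotic replicate 3 in 29 of the 41 genes, against 47.9% of all genes. The median log2 change of the list was 0.352 when hypoosmotic replicate 1 was left out, 0.162 when hypoosmotic replicate 3 was, and 0.392 when normoosmotic replicate 3 was. Among the 20 genes with a response element in the promoter window, hypoosmotic replicate 1 was the lowest of its group in 14, and among the 10 with a promoter but no match in 4. Normoosmotic replicate 3 was the highest of its group in 11 of the 20 and in 6 of the 10. The median log2 change was 0.222 for the 20 and 0.265 for the 10.

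**Figure D5:**
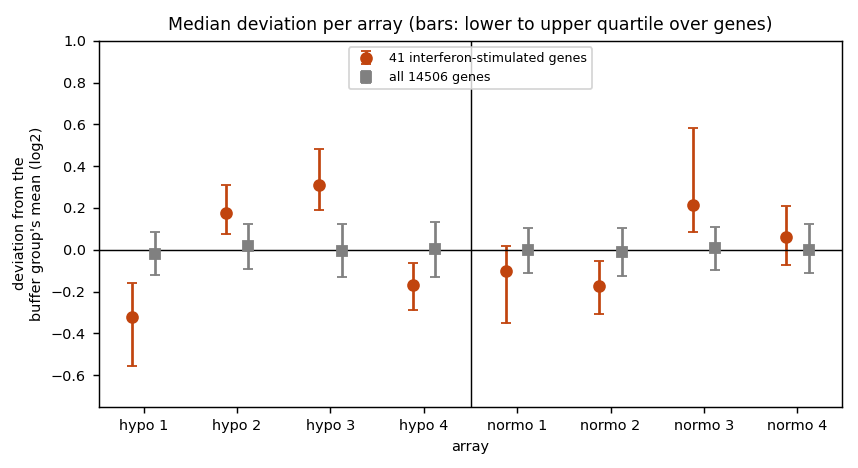
Median deviation of each array from the mean of its own buffer group (y axis, log2 units; bars give the quartiles over genes) for the 41 genes and for all 14506 genes. The list's medians run from −0.322 in hypoosmotic replicate 1 to 0.31 in hypoosmotic replicate 3 and 0.212 in normoosmotic replicate 3, while those of all genes stay near 0.

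Other genes of the pathway were taken from lists of known members. Of the interferon genes themselves 5 of 10 listed were measured, at hypoosmotic means between 2.27 for Ifng and 4.44 for Ifna5 and normoosmotic means between 2.39 and 4.42, and 0 were called. Ifnb1, the type I interferon made first by infected cells, averaged 3.40 ± 0.38 in hypoosmotic and 3.12 ± 0.08 in normoosmotic samples (adjusted p = 0.463). Of 11 measured receptor and signalling genes 1 was called higher and 0 lower, against 0.558% and 1.42% of all genes. Irf1, a transcription factor induced by interferon gamma, rose to 9.42 ± 0.11 in hypoosmotic samples, against 8.75 ± 0.29 in normoosmotic ones (SD, n = 4 each; adjusted p = 0.0326). It read 9.30, 9.55, 9.37 and 9.46 in hypoosmotic replicates 1 to 4, against 8.77, 8.91, 8.34 and 9.0 in normoosmotic ones. Normoosmotic replicate 3, the highest of its group for most of the 41 genes, was the lowest for Irf1.

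Ifnar1, a subunit of the type I receptor, averaged 7.76 ± 0.10 in hypoosmotic and 7.55 ± 0.11 in normoosmotic samples (adjusted p = 0.417). Ptpn11, a phosphatase of receptor signalling, had a change of −0.42 and Irf2, a repressor related to Irf1, one of −0.365 (adjusted p = 0.0835 and 0.195). Of 16 measured genes that act upstream of interferon 0 were called. The smallest p-values there belonged to negative changes that did not pass, at −0.49 for Tlr7, an endosomal RNA receptor, −0.325 for the kinase gene Tbk1 and −0.30 for Irf8 (adjusted p = 0.102, 0.246 and 0.31). Irf3, the factor that switches on Ifnb1, had a change of −0.125 (adjusted p = 0.705).

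Of 45 further interferon-induced genes measured out of 63 listed, 1 was called higher and 0 lower, against 0.558% and 1.42% of all genes. Trim14, an adaptor of antiviral signalling, rose by 0.65 ± 0.15 (SE) to 6.72 ± 0.16 in hypoosmotic samples, against 6.07 ± 0.30 in normoosmotic ones (SD, n = 4 each; adjusted p = 0.0462). The median change of the 45 was 0.187, with 35 positive, and 11 had an unadjusted p under 0.05 with a higher hypoosmotic mean and 0 with a lower one. Over all genes the median change was 0.037, 58.2% were positive, and 6.6% were higher and 7.97% lower at that unadjusted p. Plscr1, a phospholipid scramblase gene, Ube2l6, the conjugating enzyme for Isg15, and Psmb10, a further subunit of the immunoproteasome, had changes of 0.45, 0.46 and 0.42 (adjusted p = 0.0852, 0.106 and 0.147). By array the mean of the 45 genes was 6.03, 6.29, 6.33 and 6.11 in hypoosmotic replicates 1 to 4 and 5.92, 5.89, 6.05 and 6.11 in normoosmotic ones.

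Cell type markers were measured beside these genes. The hepatocyte markers averaged 11.46 to 11.63 on hypoosmotic and 11.55 to 11.61 on normoosmotic arrays, where the median over all probe sets was 4.05 to 4.16 per array. Of these 12 genes 1 was called, the amino acid enzyme gene Tat, which fell by 0.76 on the log2 scale (adjusted p = 0.00408). Of the macrophage and Kupffer cell markers 0 of 14 were called, 12 of 14 had a positive change, and the median change was 0.116. Over all genes 1.98% were called, 58.2% had a positive change, and the median change was 0.037. Their mean was 6.74, 7.11, 6.91 and 6.73 in hypoosmotic replicates 1 to 4 and 6.75, 6.57, 6.52 and 7.09 in normoosmotic ones. Among hypoosmotic arrays replicates 2 and 3 were the higher ones, as for the interferon-stimulated genes, while among normoosmotic arrays replicate 3, the highest for most of those genes, was the lowest for the markers. The endothelial, stellate cell, T and NK cell, B cell, neutrophil, dendritic cell, bile duct and erythroid lists had 0 genes called each. T and NK cell markers had a median change of 0.158 over 15 genes. Their mean was 3.45, 3.56, 3.56 and 3.31 in hypoosmotic replicates 1 to 4 and 3.39, 3.33, 3.42 and 3.35 in normoosmotic ones. Hypoosmotic replicates 2 and 3 and normoosmotic replicate 3 were thus the highest of their groups, as for most of the interferon-stimulated genes. The lowest hypoosmotic array was replicate 4 for these markers. The part of cell makeup in the differences was not tested.

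Clock genes set normoosmotic replicates 1 and 3 apart from the other arrays. The clock activator Bmal1 read 4.85 and 4.75 there, against 6.42 to 7.32 on the other 6 arrays. For Rsad2 those 2 arrays were the lowest and the highest of their group, at 6.12 in normoosmotic replicate 1 and 7.97 in normoosmotic replicate 3. Over the list, normoosmotic replicate 1 lay below its group's mean in 29 of the 41 genes, against 50.7% of all genes. Normoosmotic replicate 3 lay above it in 35, against 51.4% of all genes. The part of the clock difference in the spread of these genes was not tested. With a clock score as a covariate Trim25 kept the call (adjusted p = 0.0462), where 92 of all genes were called instead of 287. Leaving out both arrays left 2 normoosmotic arrays, and 0 of the 41 genes and 21 of all genes were called. The log2 change of Trim25 was then 0.69 ± 0.15 (SE; adjusted p = 0.113), against 0.65 ± 0.13 with all arrays.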

How the data were processed

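Total RNA of 8 perfused rat liver samples was extracted with Trizol and labelled for Affymetrix arrays, per the labels' protocols. The software, per the submitters' processing notes, was Transcriptome Analysis Console 4.0. How probes were summarised and normalized is not stated in any source at hand. The authors' deposited values are on a log2 scale, as read from their range of 0.88 to 13.26, with array medians of 4.05 to 4.16, and were used as deposited. Arrays carry no read depth, so the number of arrays limits the precision, and no detection call was used.

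Of 27596 probe sets, 15310 had 1 gene symbol, 323 several and 11963 none in the platform annotation. Symbols were updated by gene ID through RefSeq (GRCr8), where 15279 matched. The probe set with the highest mean was taken for each of 14506 genes. No build is named for the array, so positions are given only for RefSeq promoters. Buffers were compared with limma 3.58.1 in R 4.3.3 (lmFit and eBayes, buffer as the only term, two-sided, Benjamini-Hochberg over 14506 genes, called at an adjusted p under 0.05). In simulated data with 4 arrays against 4 and 14506 genes, 48.8% of genes changed by 0.5 log2 units were recovered. The shares were 94.2% at 1 and 99% at 1.5, with 5.1% false calls. Recovery was not worked out for the interferon-stimulated genes, which vary more. Their median SDs were 0.337 in hypoosmotic and 0.309 in normoosmotic samples, against 0.179 and 0.167 for all genes. The shares therefore do not give the power for the list. Rsad2, Cmpk2 and Ifit1, with log2 changes of 1.75, 1.36 and 1.02, were not called.

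Members, gene lists and tests were chosen with earlier results of these data known. Named with all values were the 8 members with the smallest p, called members, the 3 with the widest range in each buffer and the 3 with the highest mean; genes of other lists were named where called, on a short list of core genes (Ifnar1, Irf1, Irf3, Irf8) or among the 3 smallest p of their list. A few further members and marker genes were named after their values were seen. Alternatives were a low-signal filter, quantile and median scaling, a trended prior, array weights, a replicate block, the mean over probe sets, a clock covariate, leaving out each array, and, chosen after seeing the data, leaving out normoosmotic replicates 1 and 3.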

Additional observations from a re-analysis of the deposited data

Results flagged for a closer look

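In 4 of 82 groups of 4 arrays (41 genes in each buffer), 1 array lay far from the other 3, a pattern that chance gives in about 1 in 20 groups. In each, the gap to the nearest array was above the 95% critical value of Dixon's test. Ifit1 read 6.07 in hypoosmotic replicate 4, against 2.05 to 2.24 in the other hypoosmotic arrays. Stat2 read 6.82 in hypoosmotic replicate 4, with the others at 6.56 to 6.59. Mx1 and Mx2 read 3.55 and 4.72 in normoosmotic replicate 2, with the others at 3.89 to 3.92 and 5.29 to 5.33.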

How the results depend on the processing

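Over the alternatives the median log2 change of the 41 genes stayed positive, between 0.162 and 0.428, and 0 genes were called lower. The number called higher, 1 as reported, was 3 when the dimmest 25% of genes were dropped or an adjusted p under 0.1 was used. It was 2 each under quantile normalization, median scaling, a trended robust prior and array weights, and 0 to 5 without single arrays. The calls over all genes numbered 287, 92 with the clock score, 601 at an adjusted p under 0.1, and 81 to 365 without single arrays. They also rose, to 334 when the dimmest 25% were dropped, 335 under quantile normalization and 346 under median scaling. The trended robust prior gave 332 and array weights 395. Groups were apart in 2 of the 41 genes (4.88%), against 8.27% of all genes. The number was 5 after quantile normalization and 2 to 8 without single arrays. Groups with fewer arrays are more easily apart, and the share of all genes was not counted in these alternatives. Without normoosmotic replicates 1 and 3 together, chosen after seeing the data, 21 genes and 0 of the 41 were called, 7 were apart and the median normoosmotic SD was 0.205. That setting left 2 normoosmotic arrays, where groups are more easily apart and an SD tends to be lower than over all arrays of the buffer. Its count and SD are therefore not comparable with those of the full data. Cxcl11, near 0 throughout, turned to −0.0067 under quantile normalization and to −0.0275 under median scaling, and ran from −0.0825 to 0.1275 without single arrays. Prior, weights, block and covariate leave SDs and overlap of groups as they are. The cause of these shifts was not tested.

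The main fit did not pair arrays by replicate number, and the labels do not state a pairing. Over all genes the correlations of same-numbered deviations from the group means were 0.046, 0.028, 0.083 and 0.173. Of the hypoosmotic arrays, replicate 4 alone correlated best with its own number. Hypoosmotic replicates 1 and 3 correlated best with normoosmotic replicate 2 (0.083 and 0.206), and hypoosmotic replicate 2 with normoosmotic replicate 4 (0.034). The 0.206 was the highest of all the correlations between the buffers. With the replicate block 256 of all genes were called, and 5 of the 41 were called higher. These were Rsad2 and Cmpk2 (adjusted p = 0.00112 each), Samd9l (0.0231), Trim25 (0.0219) and Ifit3 (0.03). The SE fell from 0.42 to 0.15 for Rsad2 and from 0.4 to 0.11 for Cmpk2, and rose from 0.15 to 0.16 for Rig1. Whether same-numbered arrays belong together could not be decided from these values.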
